A study of Mus musculus with 6 samples.

Results

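Imprinted genes are expressed mainly or only from the allele inherited from 1 parent, and 40 of them were followed in the adult mouse testis with and without the dioxygenase gene Alkbh1. The members were listed by gene name, and a probe set was taken where the array annotation gave exactly 1 gene and that gene was on the list. Of the 40 genes, 37 had such a probe set, out of 18194 genes named on the array, and together they had 98 probe sets. Each probe set reads 1 stretch of transcript through several short probes, and many genes have more than 1. Whole testes came from 3 wild-type mice (WT) and 3 Alkbh1-/- mice (KO), all 12 weeks old and of a background that one label spells C57/BL6 and another C53/BL6. The labels name no other allele or treatment. RNA of each mouse was hybridised to 1 Affymetrix array, and the deposited values are log2 expression values. How Alkbh1 was inactivated, and in which cells, was not stated in the material used here.

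Imprinting works through DNA methylation that is laid down differently in sperm and egg at imprinting control regions and is then kept in the body of the offspring. In the germ line the old marks are erased and new ones are set by the sex of the animal, so that male germ cells carry paternal marks on both copies. The control regions of H19 and Igf2, of the Dlk1-Dio3 cluster and of Rasgrf1 are among the few that are methylated in the male germ line, while most others are methylated in the egg. Many imprinted genes act on fetal and placental growth and are down-regulated after birth. The adult testis is mostly germ cells, with Sertoli, Leydig and other somatic cells among them. An array reads both alleles together, so the words maternal and paternal below name the allele that is known to be expressed in mouse tissues where the gene is imprinted, which was not measured here.

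Meg3 was the member with the largest differences between KO and WT, and its start sites are shown because the results below turn on this gene. The windows are RefSeq promoter sequences of build GRCm38.p6, from 250 bases before to 50 bases after a start, and run 5′ to 3′ on the strand of the gene. Capitals mark matches, on either strand, to the cAMP response element TGACGTCA and to TGCCGC, the motif bound by the imprint-protecting factor ZFP57. Dlk1 is the paternally expressed neighbour of Meg3, and Rasgrf1 is the gene with the next largest difference.
Meg3, first start, chr12:109540746-109541045, plus strand: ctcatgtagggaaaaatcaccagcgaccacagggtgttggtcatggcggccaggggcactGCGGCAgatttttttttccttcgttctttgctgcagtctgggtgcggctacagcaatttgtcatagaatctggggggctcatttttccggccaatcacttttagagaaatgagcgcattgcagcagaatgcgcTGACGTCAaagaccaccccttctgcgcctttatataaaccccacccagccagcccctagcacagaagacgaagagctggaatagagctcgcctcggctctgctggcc
Meg3, second start, chr12:109545148-109545447, plus strand: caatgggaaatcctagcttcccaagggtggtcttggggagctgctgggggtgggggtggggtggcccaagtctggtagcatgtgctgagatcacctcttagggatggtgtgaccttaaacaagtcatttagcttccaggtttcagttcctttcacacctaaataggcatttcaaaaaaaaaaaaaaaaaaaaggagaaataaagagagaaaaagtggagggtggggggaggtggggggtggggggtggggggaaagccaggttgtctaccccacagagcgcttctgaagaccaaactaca
Dlk1, chr12:109452573-109452872, plus strand: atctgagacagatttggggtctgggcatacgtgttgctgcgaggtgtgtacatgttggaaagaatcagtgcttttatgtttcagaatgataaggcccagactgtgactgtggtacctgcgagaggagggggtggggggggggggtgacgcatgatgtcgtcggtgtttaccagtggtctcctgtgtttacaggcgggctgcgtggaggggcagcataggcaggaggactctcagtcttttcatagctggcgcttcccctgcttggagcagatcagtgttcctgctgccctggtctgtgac
Rasgrf1, chr9:89909525-89909824, plus strand: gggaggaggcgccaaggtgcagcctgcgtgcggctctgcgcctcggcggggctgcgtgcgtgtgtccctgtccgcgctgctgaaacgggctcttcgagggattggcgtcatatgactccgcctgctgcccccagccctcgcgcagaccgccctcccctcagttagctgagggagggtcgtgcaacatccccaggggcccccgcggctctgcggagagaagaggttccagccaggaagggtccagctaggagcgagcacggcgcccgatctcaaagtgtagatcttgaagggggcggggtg

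The first window of Meg3 held 13 CG dinucleotides, 1 cAMP response element and 1 ZFP57 motif, written on the other strand as GCGGCA, and the second window held 1 CG and neither motif. The Dlk1 window held 9 CG and that of Rasgrf1 26, with neither motif in either. RefSeq windows were at hand for 33 of the 40 members, 50 windows in all. The cAMP response element occurred in 2 of these windows (4%), those of Meg3 and Peg3, against 1.79% of all 32851 windows. The ZFP57 motif occurred in 12 (24%), against 11.6% of all windows, and the median number of CG was 14.5 in the members' windows and 7 in all windows. Several windows of a gene can overlap, and CG-rich windows hold more motifs with CG in them. A match is a string of letters and not a site shown to be bound.

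Meg3 also carries miRNAs, which the array did not measure. RefSeq places 3 mature miRNAs from 2 miRNA genes within Meg3. They were taken by position alone, and whether they are made from the Meg3 transcript in testis was not tested. They are printed with the seed, bases 2 to 8, in capitals.
mmu-miR-1906: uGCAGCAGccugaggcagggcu
mmu-miR-770-5p: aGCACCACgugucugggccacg
mmu-miR-770-3p: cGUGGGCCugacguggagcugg
None of these share a seed. Within Rian lie 6 further mature miRNAs and within Mirg 19.

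Alkbh1 itself read 8.60 ± 0.15 log2 in WT and 5.42 ± 0.30 in KO at probe set 1434660_at (mean ± SD, n = 3 each), with all KO values below all WT values. Its second probe set, 1438681_at, read 6.99 ± 0.17 in WT and 5.97 ± 0.17 in KO, 2.02-fold lower and also without overlap, and did not pass (limma adjusted p = 0.0697, against 0.000582 for the first). WT replicates 1 and 2 stood apart from the rest, at −24.36 and 21.03 on the first principal component, with the other 4 arrays between −6.85 and 6.87. Correlations between arrays over the 27022 probe sets tested ran from 0.989 to 0.996. Those 27022 are the upper 60% by mean level (mean log2 of 6.02 or more). Markers of germ cells, Sertoli, Leydig, peritubular cells and macrophages were found at this level, as a whole testis would have, with 8 of 8 spermatid genes, 8 of 8 spermatocyte genes, 11 of 12 Sertoli genes and 5 of 8 Leydig genes kept. Of 6 epididymal markers 1 was above this level, and of 6 erythroid markers 1. The Leydig genes Insl3, Hsd3b6 and Lhcgr had no probe set of their own above it.

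No imprinted gene passed the test between KO and WT. Of the 98 member probe sets, 56 from 29 genes lay above the level filter and were tested, and 0 of 56 passed (limma, Benjamini-Hochberg adjusted over all 27022 probe sets, threshold 0.05), where 0.0407% of all probe sets did. At an unadjusted p under 0.05 there were 5 of the 56 (8.93%), against 5.11% of all probe sets. All 5 were higher in KO, where 3.32% of all probe sets were (1.78% were at such a p and lower in KO), and 4 of them belonged to Meg3 and 1 to Rasgrf1. Probe sets of a gene share their target and are not independent. In 8 of 56 (14.3%) the KO and WT values did not overlap, against 11.0% of all probe sets. Of these, 6 had KO above WT (7.12% of all) and 2 had KO below WT (3.84% of all). Without WT replicate 1 the count at an unadjusted p under 0.05 was 12 (21.4%, against 10.6% of all), without WT replicate 2 it was 7 (12.5%, against 5.97%), and without both it was 3 (5.36%, against 4.89%). The groups did not overlap in 20 without WT replicate 1 (35.7%, against 28.9% of all) and in 14 without WT replicate 2 (25.0%, against 21.2%). Without both, they did not overlap in 33 (58.9%, against 51.4% of all), and fewer WT values overlap less often by construction.

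Most differences were small beside the spread within a group, which held for most probe sets of the array too. The differences ran from −0.28 to 0.55 log2 over the 56 tested probe sets, with a median of 0.03 and a median SE of 0.09. Differences over 0.3 log2 with KO higher were seen in 5 of the 56, against 1.08% of all, 4 of them in Meg3 and 1 in Rasgrf1. These are the same 5 probe sets as at an unadjusted p under 0.05, so this count adds no separate support. Of the 56, 48 differed by under 0.2 log2, a smaller share than the 93.2% of all tested probe sets. It was 4 of 8 in Meg3 and 44 of 48 in the other members. In 45 of the 56 the range of the 3 WT values was larger than the difference between KO and WT. This too was a smaller share than the 87.5% of all probe sets, with 4 of 8 in Meg3 and 41 of 48 in the other members. The exceptions were 4 probe sets of Meg3, 3 of Ndn and 1 each of Grb10, Ube3a, Rasgrf1 and Commd1.

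**Figure D1:**
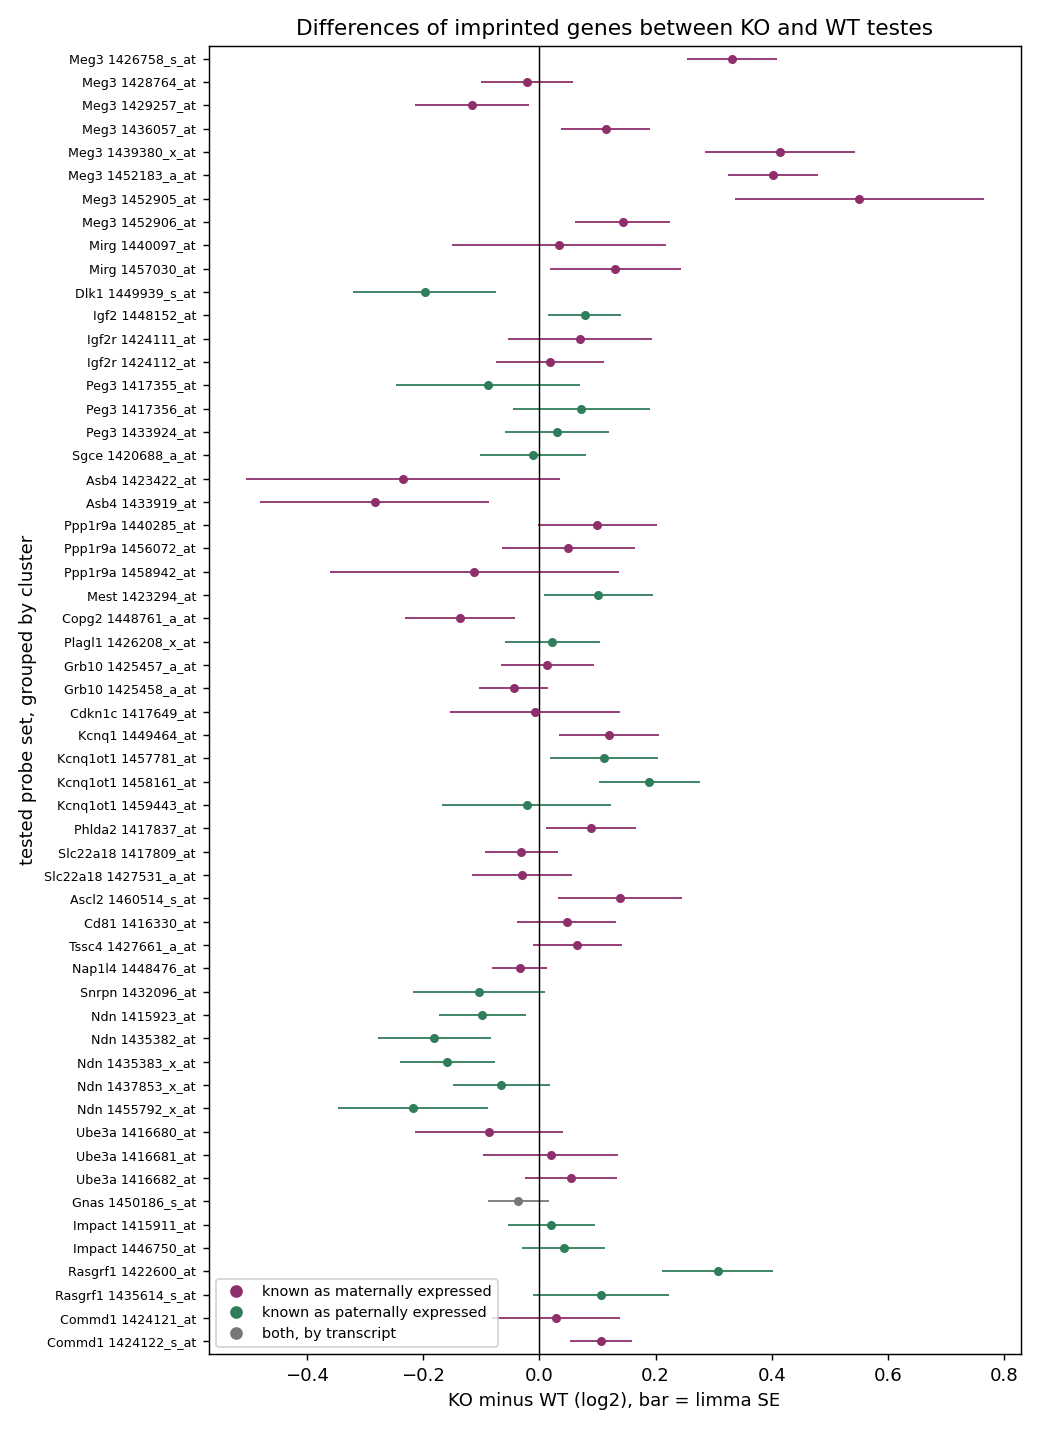
KO minus WT difference (log2, horizontal axis) of the 56 tested probe sets of imprinted genes, grouped by cluster, with the limma SE as bars and the known expressed allele by colour. Values lie between −0.28 and 0.55, and the largest belong to 4 probe sets of Meg3.

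Meg3 is a long non-coding RNA expressed from the maternal allele of the Dlk1-Dio3 cluster on chromosome 12, the chromosome that also carries Alkbh1. It had 11 probe sets, of which 8 were tested. Probe set 1452183_a_at read 7.83, 8.02 and 7.91 in WT replicates 1 to 3 and 8.25, 8.30 and 8.42 in KO replicates 1 to 3. Every KO value lay above every WT value, with a difference of 0.40 ± 0.08 log2 (KO minus WT ± SE, here and below), 1.32-fold, and limma did not call it (unadjusted p = 0.000938, adjusted p = 0.445). Over 14 alternatives its difference lay between 0.36 and 0.45 and its limma adjusted p between 0.0757 and 1.

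A second probe set of Meg3, 1426758_s_at, gave 7.79, 7.93 and 7.81 in the WT and 8.07, 8.18 and 8.27 in the KO testes. Here too the groups did not overlap (difference 0.33 ± 0.08, limma adjusted p = 0.786). Values of 1439380_x_at were 8.11, 8.48 and 8.46 across WT and 8.60, 8.73 and 8.96 across KO, again without overlap, with KO replicate 1 nearest to the WT values (difference 0.41 ± 0.13, limma adjusted p = 0.863). The ending _x_at marks probe sets some of whose probes can bind other transcripts. At 1452905_at the values were 7.14, 7.89 and 7.52 in the WT and 7.78, 7.997 and 8.42 in the KO testes. WT replicate 2 lay within the KO values there, and the difference of 0.55 ± 0.21 was the largest among the tested members (limma adjusted p = 0.932). Leaving out WT replicate 1 gave 0.36, leaving out KO replicate 3 gave 0.37 and leaving out WT replicate 2 gave 0.74. In all 4 of these probe sets KO replicate 3 was the highest array and WT replicate 1 the lowest.

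The other 4 tested probe sets of Meg3 showed less or none of this. For 1452906_at the arrays gave 6.48, 6.48 and 6.55 across WT and 6.52, 6.68 and 6.75 across KO, and for 1436057_at they gave 7.27, 7.25 and 7.38 in the WT and 7.31, 7.49 and 7.44 in the KO testes. Both had overlapping groups, with differences of 0.14 ± 0.08 and 0.11 ± 0.08 (limma adjusted p = 0.993 for each). Probe set 1428764_at read 6.75, 6.85 and 6.67 across WT and 6.69, 6.70 and 6.82 across KO, and its difference of −0.02 ± 0.08 was within the SE. Probe set 1429257_at was the lowest in relation to WT, at 7.28, 7.64 and 7.56 in the WT and 7.42, 7.36 and 7.35 in the KO testes, with a difference of −0.12 ± 0.10 (limma adjusted p = 0.993). Of the 8 tested probe sets 6 were thus higher and 2 lower in KO, with differences from −0.12 to 0.55.

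Whether the Meg3 probe sets differed from one another was tested on the value of a probe set minus the mean of the other tested probe sets of the gene on the same array. This fit covered 15331 probe sets and was added after the values were seen. Relative to the rest of Meg3, 1429257_at was lower in KO by 0.39 ± 0.10 (unadjusted p = 0.00423), 1428764_at by 0.28 ± 0.09 (unadjusted p = 0.0139). In the same limma fit 1452183_a_at was higher by 0.20 ± 0.07 (unadjusted p = 0.018) and 1439380_x_at by 0.21 ± 0.09 (unadjusted p = 0.0378). The largest such difference was that of 1452905_at, 0.37 ± 0.17 (limma unadjusted p = 0.0569). Each value is set against the other probe sets, so low ones make the others higher. These results are therefore not independent. At an unadjusted p under 0.05 stood 3.22% of all probe sets in this fit. None of Meg3 passed after adjustment over all 15331 (limma adjusted p = 1 for each), where 0.0196% of probe sets were called, so the unequal differences within Meg3 were not separated from the error.

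Under the level filter lay 3 probe sets of Meg3. Probe set 1436713_s_at read 5.10, 5.36 and 5.39 across WT and 5.51, 5.91 and 6.08 across KO, a difference of 0.55 with no overlap between groups. In the fit without a level filter its limma adjusted p was 0.936 (unadjusted p = 0.00575). The other probe sets of Meg3 there, 1428765_at and 1429256_at, had differences of 0.13 and −0.06 with overlapping groups. At such levels much of the signal can be background, which understates fold changes.

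**Figure D2:**
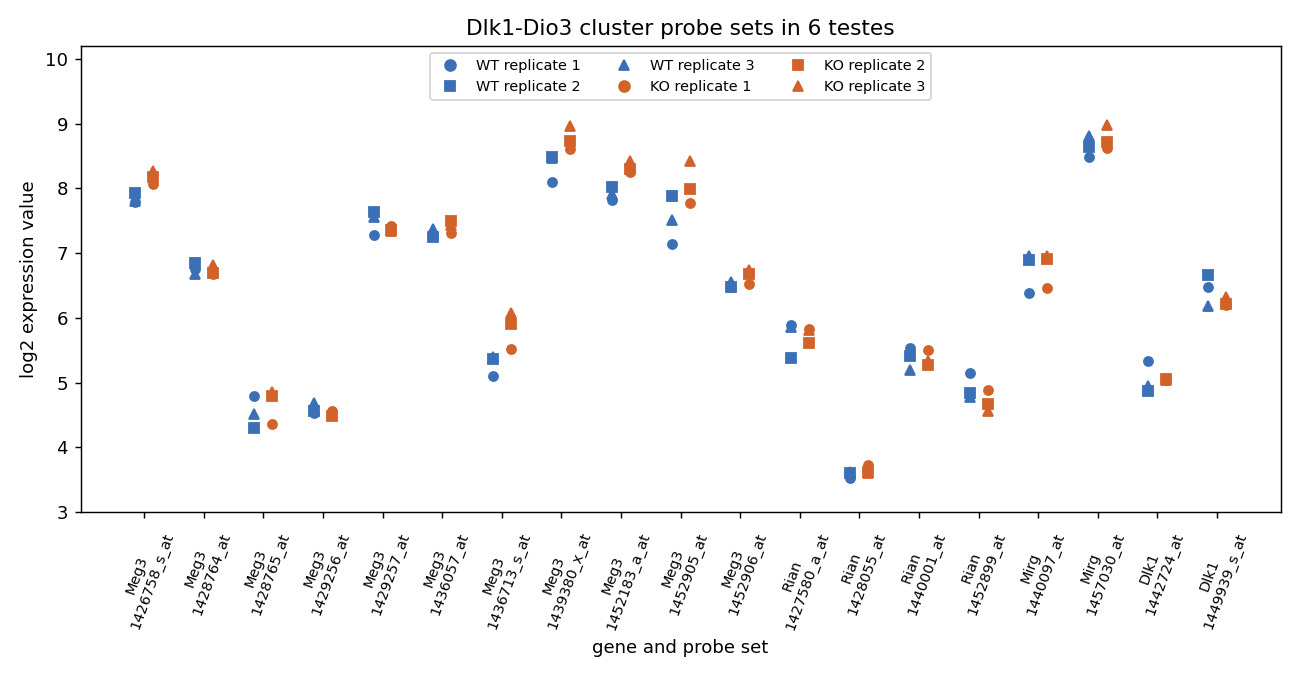
Log2 expression value (vertical axis) of every probe set of Meg3, Rian, Mirg and Dlk1 in the 6 testes, WT in blue and KO in orange, with the replicate number by marker shape. KO lies above WT without overlap at 4 probe sets of Meg3, while the groups overlap in Rian, Mirg and Dlk1.

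At the neighbours of Meg3 the KO and WT values overlapped. Mirg, the miRNA-containing gene that lies downstream of Meg3 and is expressed from the same maternal chromosome, read 8.49, 8.64 and 8.80 in the WT and 8.63, 8.72 and 8.97 in the KO testes at 1457030_at. Those groups overlapped, with WT replicate 3 above 2 of the KO arrays (difference 0.13 ± 0.11, limma adjusted p = 0.993). Its other probe set, 1440097_at, gave 6.38, 6.90 and 6.95 across WT and 6.46, 6.91 and 6.96 across KO, where replicate 1 of each group was low and the difference was 0.03 ± 0.18. The values of Mirg at 1457030_at and those of the 4 Meg3 probe sets above had the same highest array, KO replicate 3, and the same lowest, WT replicate 1.

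Rian, the transcript between Meg3 and Mirg that hosts small nucleolar RNAs, stayed under the level filter at all 4 probe sets and was not tested. The highest of them, 1427580_a_at, read 5.89, 5.38 and 5.86 in the WT and 5.84, 5.61 and 5.82 in the KO testes, and 1440001_at read 5.54, 5.41 and 5.20 across WT and 5.51, 5.27 and 5.33 across KO, with overlapping groups at both. At 1452899_at the values were 5.15, 4.84 and 4.78 in the WT and 4.88, 4.67 and 4.56 in the KO testes, a difference of −0.22, and 1428055_at was near the bottom of the scale at 3.53, 3.61 and 3.63 across WT and 3.73, 3.62 and 3.60 across KO. In the fit without a level filter the smallest unadjusted p of Rian was 0.108 (limma adjusted p = 0.998).

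Dlk1 encodes a transmembrane protein related to Notch ligands that restrains fat cell formation, and is expressed from the paternal allele. Its tested probe set 1449939_s_at read 6.49, 6.66 and 6.19 in the WT and 6.20, 6.22 and 6.33 in the KO testes. WT replicates 1 and 2 were above all KO arrays and WT replicate 3 was below them, and the difference was −0.20 ± 0.12 (limma adjusted p = 0.993). Without WT replicates 1 and 2 it turned to 0.06. Probe set 1442724_at lay under the filter, at 5.33, 4.87 and 4.94 across WT and 5.05, 5.06 and 5.03 across KO, with a difference of 0.0007 between group means. Dio3, the deiodinase that breaks down thyroid hormone, had no probe set of its own.

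Cell type markers were read beside the Meg3 values. Adipose tissue, which can adhere to a testis, had 3 of 6 markers above the filter, while Plin1, Lep and Cfd had no probe set of their own above it. The mean of these 3 was 7.25 to 8.23 log2 in WT and 7.65 to 8.94 in KO, with KO replicate 2 and WT replicate 3 highest. Sertoli markers did not overlap between groups, at 9.33 to 9.35 in WT and 9.23 to 9.29 in KO (11 of 12 markers, 9 of 11 lower in KO). Of their 14 probe sets 0 passed and 2 had an unadjusted p under 0.05 (limma), both lower in KO. Over all tested probe sets 0.0407% passed, 5.11% had such a p and 1.78% had it with KO lower. Of all 13897 genes 6124 were lower in KO. Leydig markers ran from 10.35 to 10.77 in WT and from 10.41 to 10.70 in KO, and peritubular markers from 9.06 to 9.19 and from 9.06 to 9.17. Macrophage markers lay at 7.97 to 8.13 and 7.98 to 8.16, endothelial markers (3 of 6) at 6.66 to 6.82 and 6.72 to 6.89, spermatogonial markers at 8.51 to 8.65 and 8.48 to 8.55, spermatocyte markers at 11.95 to 12.21 and 12.13 to 12.21, and spermatid markers at 13.97 to 14.03 and 14.01 to 14.04, all with overlapping groups. All 8 spermatid markers and all 3 adipose markers were higher in KO, with median differences of 0.02 and 0.17, where 55.9% of all genes were higher. None of the cell type marker probe sets passed, and apart from the 2 of Sertoli cells none had an unadjusted p under 0.05 (limma). The part of cell makeup in the Meg3 values was not tested. In a whole testis, more cells of a type and more RNA per cell cannot be told apart.

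Rasgrf1, a paternally expressed exchange factor that activates Ras and whose control region is methylated in the male germ line, was the only member besides Meg3 with a tested probe set at an unadjusted p under 0.05 in the fit with the level filter. Probe set 1422600_at read 7.44, 7.39 and 7.62 in the WT and 7.94, 7.67 and 7.76 in the KO testes. The groups did not overlap, with a narrow gap between WT replicate 3 and KO replicate 2, and the difference was 0.31 ± 0.10, 1.24-fold (limma unadjusted p = 0.0132, adjusted p = 0.863). It was 0.17 without WT replicates 1 and 2 together and 0.19 with array weights. The second tested probe set, 1435614_s_at, gave 7.83, 8.24 and 8.17 across WT and 8.30, 8.09 and 8.17 across KO. Its groups overlapped, the difference of 0.11 ± 0.12 rested on a low WT replicate 1, and without that array it was −0.02. The third, 1424734_at, lay under the filter with a difference of 0.12.

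Ndn, which encodes the growth-suppressing MAGE family protein necdin, belongs to the paternally expressed genes of the Prader-Willi region on chromosome 7 and was lower in KO at all 5 tested probe sets, from −0.22 to −0.07, none of which passed. At 1435383_x_at the values were 7.60, 7.75 and 7.62 in the WT and 7.58, 7.38 and 7.55 in the KO testes. All KO values were below WT, with replicate 1 of both groups close together (difference −0.16 ± 0.08, limma adjusted p = 0.993). Probe set 1415923_at gave 7.07, 7.07 and 7.07 across WT and 7.06, 6.99 and 6.87 across KO, with 3 nearly equal WT values and KO values below them (difference −0.10 ± 0.07, limma adjusted p = 0.993). For 1455792_x_at the arrays read 6.85, 7.15 and 6.86 in the WT and 6.98, 6.601 and 6.63 in the KO testes, for 1435382_at 7.55, 7.65 and 7.57 across WT and 7.61, 7.30 and 7.31 across KO and for 1437853_x_at 7.54, 7.65 and 7.44 in the WT and 7.58, 7.43 and 7.42 in the KO testes. In these 3 KO replicate 1 lay among the WT values, while KO replicates 2 and 3 were the lowest arrays. Of 3 further probe sets under the filter, 1438978_x_at had a difference of −0.22 without overlap (limma unadjusted p = 0.0218 in the fit without a filter, adjusted p = 0.998), and the others had differences of 0.0037 and 0.05. All probe sets of Ndn target 1 gene and share its RNA, so their common direction is not 5 independent results.

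The rest of the Prader-Willi and Angelman region overlapped between genotypes. Snrpn, a paternally expressed component of small nuclear ribonucleoproteins, was read at 1432096_at as 6.99, 6.72 and 6.54 across WT and 6.599, 6.69 and 6.64 across KO (difference −0.10 ± 0.11, limma adjusted p = 0.993). WT replicate 1 alone stood above the others, and without it the difference was 0.02. Another 6 probe sets name both Snurf and Snrpn and were left out as ambiguous. Ube3a, a ubiquitin ligase whose paternal copy is silenced in neurons, read 10.82, 11.33 and 11.23 in the WT and 11.00, 10.98 and 11.14 in the KO testes at 1416680_at, with WT replicate 1 lowest and WT replicate 2 highest and all KO arrays between them (difference −0.09 ± 0.13). Its other tested probe sets, 1416681_at and 1416682_at, differed by 0.02 ± 0.12 and 0.05 ± 0.08. Magel2 and Mkrn3 had 1 probe set each under the filter, with means of 5.22 and 5.30 log2 over all arrays and differences of −0.09 and 0.12.

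The Kcnq1 cluster on distal chromosome 7, with 9 genes and 12 tested probe sets, showed no difference past the test. Kcnq1ot1, the paternally expressed antisense RNA that silences its neighbours in cis, came closest. Its probe set 1458161_at read 8.74, 9.04 and 8.94 across WT and 9.04, 9.10 and 9.16 across KO. WT replicate 2 lay just above the lowest KO array, and the difference was 0.19 ± 0.09 (limma unadjusted p = 0.0624, adjusted p = 0.984). At 1457781_at the values were 7.89, 8.24 and 8.01 in the WT and 8.15, 8.17 and 8.16 in the KO testes and the KO arrays lay close together inside the WT range (difference 0.11 ± 0.09), while 1459443_at gave 6.87, 7.19 and 6.90 across WT and 7.26, 6.74 and 6.89 across KO (difference −0.02 ± 0.15). The other 3 probe sets of Kcnq1ot1 lay under the filter, with differences from −0.20 to −0.09.

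The 8 maternally expressed genes of that cluster had differences from −0.03 to 0.14 log2. Cdkn1c encodes a cell cycle inhibitor of the CIP/KIP family and read 9.69, 10.17 and 10.08 in the WT and 9.76, 9.98 and 10.18 in the KO testes at 1417649_at. Replicate 1 was the lowest array in each group, and the difference was −0.01 ± 0.15. Kcnq1, a potassium channel subunit, gave 6.18, 5.99 and 6.13 across WT and 6.18, 6.16 and 6.32 across KO (difference 0.12 ± 0.09). Phlda2, a placental growth restrictor, gave 6.68, 6.603 and 6.76 in the WT and 6.73, 6.86 and 6.73 in the KO testes (difference 0.09 ± 0.08). These groups overlapped.

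Ascl2, a basic helix-loop-helix factor of the placenta, read 6.28, 5.99 and 6.02 across WT and 6.29, 6.32 and 6.09 across KO at 1460514_s_at, with WT replicate 1 among the KO values (difference 0.14 ± 0.11). Its other probe sets, 1422396_s_at and 1432018_at, lay under the filter. Slc22a18, an organic cation transporter-like protein, read 8.84, 8.57 and 8.82 in the WT and 8.77, 8.69 and 8.68 in the KO testes at 1427531_a_at and differed by −0.03 ± 0.09 there and by −0.03 ± 0.06 at 1417809_at. Kcnq1, Phlda2, Ascl2 and Slc22a18 had limma adjusted p-values of 0.993 or 0.994, and Cdkn1c had 0.999.

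Cd81, a tetraspanin, read 11.00, 10.69 and 10.92 across WT and 10.98, 10.86 and 10.91 across KO, and the KO arrays lay inside the WT range (difference 0.05 ± 0.09). Tssc4 read 8.67, 8.47 and 8.48 in the WT and 8.55, 8.67 and 8.60 in the KO testes (difference 0.07 ± 0.08). Nap1l4, a histone chaperone related to NAP1, read 11.27, 11.30 and 11.25 across WT and 11.23, 11.25 and 11.23 across KO, with an SD of 0.02 in WT and 0.01 in KO and a difference of −0.03 ± 0.05 (limma adjusted p = 0.993). These 3 genes are imprinted mainly in the placenta.

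Growth factor genes showed no difference past the test. Igf2, the paternally expressed fetal growth factor, read 7.89, 7.97 and 7.96 in the WT and 8.04, 7.98 and 8.04 in the KO testes at 1448152_at. The KO values lay above WT without overlap, but WT replicate 2 and KO replicate 2 were nearly equal and the difference of 0.08 ± 0.06 did not pass (limma adjusted p = 0.993). A further probe set of Igf2, 1415931_at, lay under the filter with a mean of 4.16 and a difference of −0.04. H19, the maternally expressed RNA next to Igf2, had no probe set naming it alone, as 1 probe set names it together with Mir675. Igf2r, the maternally expressed receptor that clears IGF2, gave 7.65, 7.48 and 7.58 across WT and 7.56, 7.75 and 7.46 across KO at 1424112_at and 7.52, 7.29 and 7.20 in the WT and 7.59, 7.44 and 7.19 in the KO testes at 1424111_at, with overlapping groups and differences of 0.02 ± 0.09 and 0.07 ± 0.12.

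Grb10, an adaptor that dampens insulin and IGF signalling, read 9.18, 9.17 and 9.18 across WT and 9.18, 9.06 and 9.15 across KO at 1425458_a_at. Its 3 WT values were nearly equal and KO replicate 2 was the lowest array (difference −0.04 ± 0.06). At 1425457_a_at the difference was 0.01 ± 0.08. Ddc, the decarboxylase next to Grb10 that is paternally expressed in heart, lay under the filter at both probe sets (means of 5.05 and 5.03, differences of 0.06 and −0.10). Plagl1, a zinc finger factor of a network of imprinted growth genes, read 8.92, 9.12 and 9.18 in the WT and 9.04, 9.11 and 9.14 in the KO testes at 1426208_x_at (difference 0.02 ± 0.08), and its other 2 probe sets lay under the filter.

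Peg3, a paternally expressed zinc finger protein, was read by 3 tested probe sets with differences of −0.09 ± 0.16, 0.07 ± 0.12 and 0.03 ± 0.09. At 1417355_at the values were 6.51, 7.21 and 6.85 across WT and 6.78, 6.75 and 6.78 across KO, so that the WT arrays spread on both sides of nearly equal KO arrays. At 1433924_at they were 6.97, 7.17 and 6.96 in the WT and 7.18, 6.97 and 7.04 in the KO testes, and the groups overlapped. Zim1, its maternally expressed neighbour, lay under the filter at a mean of 4.29. Mest, a paternally expressed hydrolase-like gene, read 6.36, 6.18 and 6.21 across WT and 6.49, 6.35 and 6.22 across KO (difference 0.10 ± 0.09). Copg2, the coatomer subunit gene beside Mest, read 9.87, 10.25 and 10.09 in the WT and 9.98, 9.93 and 9.89 in the KO testes, where WT replicate 1 lay below and WT replicates 2 and 3 above all KO arrays (difference −0.14 ± 0.09, limma adjusted p = 0.993).

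Asb4, a maternally expressed gene for an ankyrin repeat and SOCS box protein on proximal chromosome 6, varied most among the WT testes. Its probe set 1433919_at read 10.40, 11.32 and 10.81 across WT and 10.51, 10.54 and 10.64 across KO, and 1423422_at read 9.24, 10.49 and 9.90 in the WT and 9.67, 9.50 and 9.75 in the KO testes. In both, WT replicate 2 was the highest and WT replicate 1 the lowest of all 6 arrays, and the KO arrays lay between. The WT ranges of 0.91 and 1.25 log2 exceeded the differences of −0.28 ± 0.20 and −0.24 ± 0.27 (limma adjusted p = 0.993 for each). At 1433919_at the difference was −0.05 without WT replicate 2 and −0.50 without WT replicate 1. These 2 WT arrays are the ones at the ends of the first principal component, and the 3′ minus 5′ signal of the control probe sets, a sign of RNA quality, was also lowest in WT replicate 1 and highest in WT replicate 2. For actin it was 0.48 and 0.70 log2 in these arrays and 0.54 to 0.56 in the other 4. For Gapdh it was 0.07 and 0.34, with 0.10 to 0.16 in the others. The part of these in the spread of Asb4, and in that of Ppp1r9a, Ube3a and the other members with WT replicates 1 and 2 at opposite ends, was not tested.

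Ppp1r9a, the maternally expressed neighbour that encodes the actin-binding protein neurabin, showed the same order of WT arrays at 1458942_at, with 6.26, 7.42 and 6.93 across WT and 6.73, 6.80 and 6.74 across KO, a WT range of 1.15 and a KO range of 0.07. At 1456072_at the difference was 0.05 ± 0.11 with overlapping groups. At 1440285_at it read 9.22, 9.60 and 9.57 in the WT and 9.58, 9.53 and 9.57 in the KO testes, where only WT replicate 1 stood apart (difference 0.10 ± 0.10, −0.02 without that array). Sgce, the paternally expressed epsilon-sarcoglycan, read 8.26, 8.07 and 8.35 across WT and 8.32, 8.16 and 8.16 across KO (difference −0.01 ± 0.09). Peg10, a gene derived from a retrotransposon that is needed for the placenta, lay under the filter with a mean of 4.60 and a difference of −0.04.

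**Figure D3:**
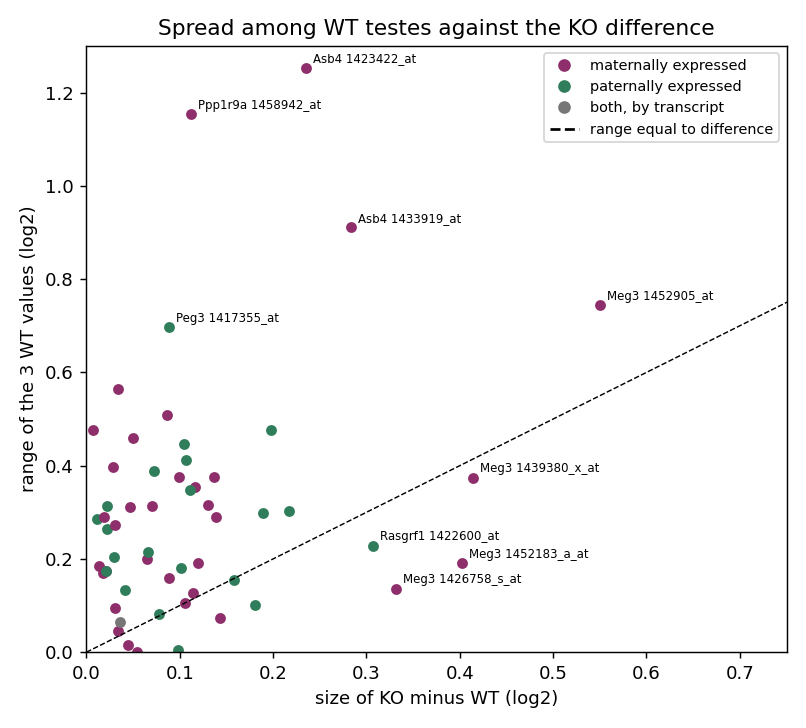
Range of the 3 WT values (log2, vertical axis) against the size of the KO minus WT difference (log2, horizontal axis) for the 56 tested probe sets, with a dashed line where both are equal. Points of Asb4, Ppp1r9a and Peg3 lie far above the line, and 3 probe sets of Meg3 and 1 of Rasgrf1 lie below it at differences over 0.3.

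The remaining members lie apart from these clusters. Commd1, a copper-related regulator on chromosome 11, read 11.06, 11.16 and 11.12 in the WT and 11.17, 11.23 and 11.25 in the KO testes at 1424122_s_at. KO lay above WT without overlap, though WT replicate 2 and KO replicate 1 were close, and the difference was 0.11 ± 0.05 (limma unadjusted p = 0.0844, adjusted p = 0.993). Its second probe set, 1424121_at, differed by 0.03 ± 0.11 with overlapping groups. Zrsr1, the paternally expressed gene inside an intron of Commd1, had no probe set.

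Gnas, whose locus gives transcripts from the maternal, the paternal and both alleles, including the stimulatory G protein alpha subunit, read 11.83, 11.83 and 11.89 across WT and 11.80, 11.77 and 11.88 across KO at 1450186_s_at (difference −0.04 ± 0.05), and its other 4 probe sets lay under the filter. Impact, a paternally expressed regulator of translation control on chromosome 18, read 7.32, 7.26 and 7.43 in the WT and 7.35, 7.30 and 7.42 in the KO testes at 1415911_at (difference 0.02 ± 0.07). Nnat, a brain proteolipid, and Nap1l5, a retrogene, are both paternally expressed and lay under the filter with means of 5.67 and 4.10. Nnat differed by −0.19 and Nap1l5 by −0.01, with overlapping groups.

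**Figure D4:**
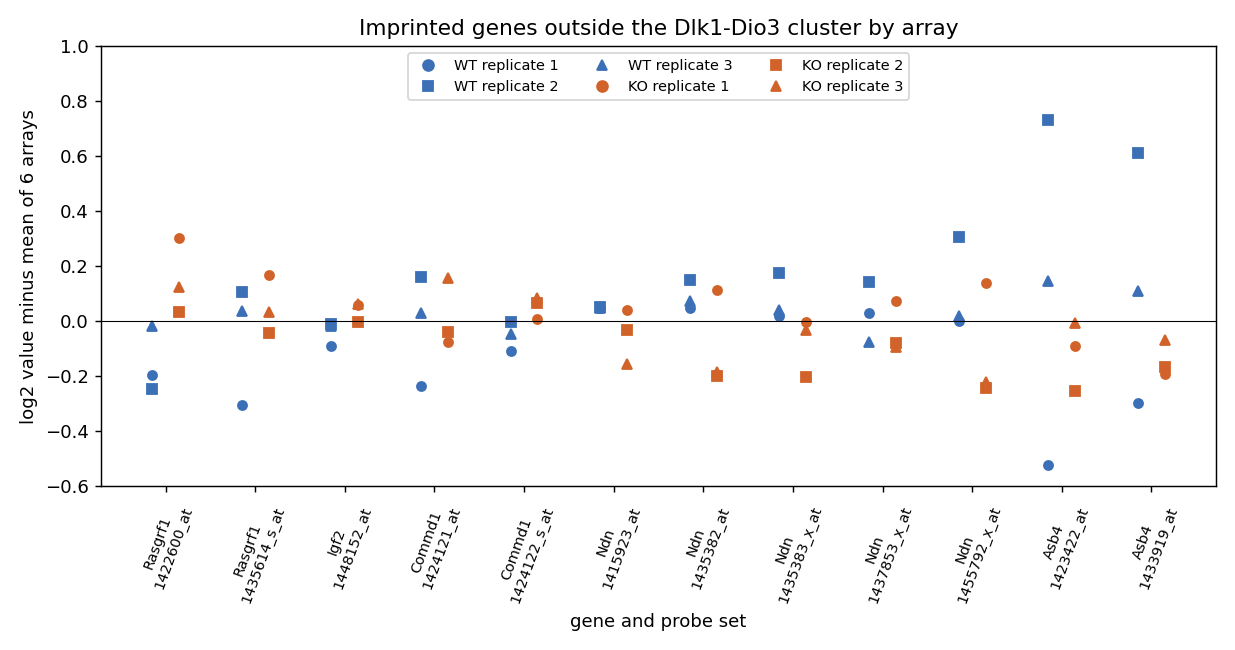
Log2 value of each testis minus the mean of the 6 arrays (vertical axis) for the 12 tested probe sets of Rasgrf1, Igf2, Commd1, Ndn and Asb4, WT in blue and KO in orange, with the replicate number by marker shape. The Rasgrf1 probe set 1422600_at has KO above WT, the Ndn probe sets have KO replicates 2 and 3 low, and at Asb4 the WT arrays spread more widely than the KO arrays.

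Maternally and paternally expressed genes were set side by side with 1 probe set per gene, the one with the highest mean above the filter. Of 17 maternally expressed genes 10 were higher and 7 lower in KO, and their median was 0.05 log2. Of 11 paternally expressed genes 7 were higher and 4 lower, with a median of 0.02. Over all 13897 genes 55.9% were higher, with a median of 0.01. Medians of the maternal genes moved to 0.09 without KO replicate 1 and to −0.01 without WT replicates 1 and 2 together, and those of the paternal genes to 0.07 without WT replicate 3. The SD of the list medians between replicates was 0.03 for maternal and 0.04 for paternal genes. At an unadjusted p under 0.05 stood 4 of 34 maternal probe sets, all of Meg3, and 1 of 21 paternal ones, that of Rasgrf1, beside 5.11% of all tested probe sets.

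The level filter left more of the maternally than of the paternally expressed members, a difference that was not tested. Of 17 paternal genes with a probe set 11 had one above it, and of 19 maternal genes 17 did. All members together had 29 of 37, beside 13897 of the 18194 genes named on the array. Over all members, 42 probe sets lay under the filter, with means from 3.01 to 5.88 log2. In the fit without a filter 2 of these 42 had an unadjusted p under 0.05 (1436713_s_at of Meg3 and 1438978_x_at of Ndn), and 0 of all 98 passed, with 7 of 98 at an unadjusted p under 0.05, against 4.81% of all 45037 probe sets.

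Other imprinted genes and the enzymes that set and keep imprints were read from 2 further lists, and a named gene is given at its probe set with the smallest p. Of 50 other imprinted genes 30 were above the filter, with 48 probe sets, of which 0 passed and 4 had an unadjusted p under 0.05 (limma), 3 of them higher in KO. Of all tested probe sets 0.0407% passed, 5.11% had such a p and 3.32% had it with KO higher. Sfmbt2, a paternally expressed polycomb protein of the placenta, differed by −0.37 ± 0.10 (limma adjusted p = 0.863). Pon2 differed by 0.21 ± 0.06, Trappc9 by 0.17 ± 0.05 and Dhcr7, an enzyme of cholesterol synthesis, by 0.28 ± 0.11 (limma adjusted p = 0.863, 0.863 and 0.932). The groups did not overlap at these probe sets of Sfmbt2, Pon2 and Trappc9, and overlapped at that of Dhcr7. Over all tested probe sets 11.0% did not overlap, but these 4 genes were picked by their small p, which favours groups without overlap. For the whole list 18 genes were higher and 12 lower, with a median of 0.01.

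Of 25 genes of the imprint machinery 22 were above the filter, with 44 probe sets, and 0 passed or had an unadjusted p under 0.05 (limma). The smallest p belonged to Tet2, a methylcytosine dioxygenase (0.28 ± 0.12, limma adjusted p = 0.981), and to the heterochromatin protein gene Cbx5 (0.13 ± 0.06, limma adjusted p = 0.984). Hells, a chromatin remodeller needed for DNA methylation, differed by −0.11 ± 0.06, and the de novo methyltransferase gene Dnmt3a by −0.12 ± 0.07 (limma adjusted p = 0.993 for both). At the probe sets given for these genes the groups did not overlap. They were picked by their small p, which favours groups without overlap. The 11.0% without overlap among all tested probe sets is therefore not a like comparison. At the other tested probe sets Cbx5 differed by −0.13, 0.04 and 0.05, Hells by 0.02 and Dnmt3a by −0.07, −0.01 and 0.05. The list as a whole had 15 genes higher and 7 lower in KO, with a median of 0.03, beside 0.01 over all genes.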

How the data were processed

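Total RNA of whole testes was labelled with biotin and hybridised to Affymetrix arrays, 1 per mouse, per the labels' protocols, which call the samples biological replicates. The deposited table holds log2 expression values for 45101 probe sets, read with GCOS 1.4 per the submitters' processing notes. The log2 scale follows from the values, which run from 2.61 to 15.00, and the summarisation and normalization by the authors were not stated in those sources. Array medians between 6.62 and 6.65 show that arrays had been brought to a common level.

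Genes were named from the platform annotation, with symbols updated through RefSeq GRCm38.p6. Of 45037 probe sets without controls, 34945 named 1 gene, 932 several and 9160 none. The 8 member probe sets naming several genes were left out. Probe sets in the upper 60% by mean level were tested with limma 3.58.1 in R 4.3.3 (lmFit, eBayes with an intensity trend) for KO against WT, with Benjamini-Hochberg adjustment over 27022 probe sets and a threshold of 0.05. The scripts were tested on simulated data. Only 3 arrays per group limit the precision, with a median SE of 0.08 log2. The members, lists and tests were chosen with earlier results of these data known.

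Values by array are given for member probe sets at an unadjusted p under 0.05, for those whose groups do not overlap, for the probe set of each tested member with the highest mean, and for all probe sets of the Dlk1-Dio3 cluster. Of the 2 other gene lists, up to 4 genes with the smallest p were named. Alternatives were another normalization, other level filters, other variance models, array weights, a replicate block and left-out arrays. A principal component analysis and correlations between arrays were used to look for arrays that stand apart, and the files gave no batch.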

Additional observations from a re-analysis of the deposited data

How the results depend on the processing

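No imprinted probe set passed the test under any of the 14 alternatives. Among the 39 named probe sets the lowest adjusted p was 0.0757 (Meg3 1452183_a_at with array weights, limma). The number of probe sets changed over the whole array was 11. It was 7 with the upper 40% by level, 46 with array weights, 2 without WT replicates 1 and 2 together, 0 without moderation of variances (1455 at an unadjusted p under 0.05), and 2 to 12 when 1 array was left out. The labels do not say whether same-numbered samples were paired. Correlations of the deviations between same-numbered arrays were 0.22, −0.02 and 0.10. Differently numbered arrays were not compared in this way, so these values do not decide it. With the replicate block 9 probe sets were called, and 0 of the imprinted ones. The median difference of maternally expressed genes was −0.0097 without WT replicates 1 and 2 together and 0.030 to 0.0906 when 1 array was left out, and that of paternally expressed genes 0.0063 to 0.0689. Of 39 named probe sets 23 kept their direction under every alternative, among them the 4 of Meg3 at an unadjusted p under 0.05 and Rasgrf1 1422600_at. Where the groups do not overlap, as at 3 of these Meg3 probe sets and Rasgrf1 1422600_at, leaving out arrays cannot turn the direction. The level filters and variance models leave the difference itself unchanged. A kept direction there is thus no further support. Without WT replicates 1 and 2 together the direction turned for Dlk1 1449939_s_at (0.0611), Impact 1415911_at (−0.0758), Meg3 1428764_at (0.0640), Mirg 1440097_at (−0.17) and 1457030_at (−0.0281), Plagl1 1426208_x_at (−0.0847), Ppp1r9a 1440285_at (−0.0097) and Snrpn 1432096_at (0.10). Array weights turned Impact 1415911_at (−0.0487), Meg3 1428764_at (0.0184), Mirg 1440097_at (−0.0721), Plagl1 1426208_x_at (−0.0482) and Snrpn 1432096_at (0.0449). With 1 array left out, differences on both sides of 0 were seen for Cd81 (−0.0423 to 0.11), Cdkn1c (−0.15 to 0.10), Igf2r 1424112_at (−0.0637 to 0.0845), Impact (−0.0185 to 0.0689), Meg3 1428764_at (−0.0646 to 0.0244), Mirg 1440097_at (−0.15 to 0.19), Peg3 1433924_at (−0.0268 to 0.0979), Plagl1 (−0.0569 to 0.0753), Ppp1r9a 1440285_at (−0.0214 to 0.17), Rasgrf1 1435614_s_at (−0.0195 to 0.19), Sgce (−0.0916 to 0.0508), Slc22a18 1427531_a_at (−0.12 to 0.0197), Snrpn (−0.21 to 0.0154) and Ube3a 1416680_at (−0.24 to 0.0148). The cause of these changes was not tested, and all are smaller than 0.3 log2. Where 1 WT array was left, it was assumed to vary like the other group. The test within Meg3 and the counts without WT replicates 1 or 2 were chosen after seeing the data. Signals near background and a range compressed at both ends limit what can be seen at low and high levels.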
